A study of Mus musculus with 6 samples.

Results

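Siglec1+ macrophages were 377 of 24721 cells kept from lymph node libraries enriched for CD11b+ and CD11c+ cells. All 6 libraries of the study kept 53259 cells, and the 3 depleted of CD45+ cells held 1 further cell each that met the rule. They were selected by their unique molecular identifiers (UMIs, one per captured transcript): at least 3 for C1qa, 1 for C1qb and 1 for Siglec1, fewer than 2 for Ly6c2, and 0 for Cd3e and Cd79a. There were 124 such cells from mice bearing YUMMER1.7 melanoma, 140 from mice bearing YUMM1.7 melanoma and 113 from naive, tumour-free mice. The levels of these 6 genes chose the cells and are given only as a description.

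Sinus macrophages line the subcapsular and medullary spaces through which lymph enters a node. They take up particles, immune complexes and dying cells, and in mice many of them carry Siglec1 (CD169), a receptor for sialic acid, with the scavenger receptor Marco or the lectin Cd209b (SIGN-R1). They are the first macrophages of a draining node to meet material from a tumour.

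All mice were C57Bl/6. The YUMM1.7 tumour line comes from a mouse melanoma, and ultraviolet irradiation of that line gave YUMMER1.7, the more immunogenic of the pair. Inguinal and axillary nodes, pooled over several mice within a library, were digested with collagenase, and cells bound by CD11b and CD11c beads were run on the Chromium GEM-X 3′ v4 chemistry. Each arm had 1 such library, so no arm has a replicate: every difference below is one between libraries, no p-value is given, and intervals are 95% intervals that cover counting error only.

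The 3 enriched libraries kept 6801 (YUMMER1.7), 7453 (YUMM1.7) and 10467 (naive) cells with median depths of 10491, 9702 and 6953 UMIs. They held between 78305030 and 86471908 UMIs each. Any 2 of the 6 libraries shared between 5 and 42 kept cell barcodes, at most 0.421% of the smaller one, and none of these belonged to a Siglec1+ macrophage. The libraries depleted of CD45+ cells, with 1 such cell each, gave no comparison.

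The selected cells were themselves of unequal depth. Their median was 21578.5 UMIs in YUMMER1.7, 19500 in YUMM1.7 and 9254 in naive nodes, with a range of 598 to 86896, 780 to 45222 and 578 to 35888. Below 2000 UMIs lay 7 of 124, 8 of 140 and 24 of 113 cells, or 5.65%, 5.71% and 21.2%. The median of detected genes per cell was 4824.5, 4676.5 and 3025 in the same order, and mitochondrial UMIs had medians of 3.22%, 3.92% and 4.59%. A shallow cell passes the rule less easily, because 1 Siglec1 UMI has to be seen. Just inside the Siglec1 limit, at 1 UMI, were 40 YUMMER1.7, 46 YUMM1.7 and 58 naive cells, and just outside it, at 0 UMIs with every other criterion met, were 324, 369 and 640. At the C1qa limit 3, 3 and 12 cells had 3 UMIs and 1, 3 and 9 failed on 2 UMIs alone. At the Ly6c2 limit 13, 12 and 6 cells had 1 UMI and 4, 2 and 2 failed on 2 UMIs alone.

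Siglec1+ macrophages made up 1.82% (1.52 to 2.17) of the kept cells in YUMMER1.7 nodes and 1.88% (1.58 to 2.21) in YUMM1.7 nodes, against 1.08% (0.891 to 1.30) in naive nodes. The log2 ratio of shares was 0.76 (0.38 to 1.14) for YUMMER1.7 over naive, 0.80 (0.43 to 1.17) for YUMM1.7 over naive and -0.04 (-0.40 to 0.32) between the tumours. The naive share was the lowest at every depth tried. After every kept cell was thinned to 2000 UMIs before the rule was applied, 52 of 6228 cells passed in YUMMER1.7, 60 of 6628 in YUMM1.7 and 31 of 8929 in naive nodes, which is 0.835%, 0.905% and 0.347%. These are shares of a bead-enriched suspension, and how the beads and the digestion bear on them was not tested.

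The label was checked against Marco, Cd5l and Cd209b, which the rule did not use. Marco, the scavenger receptor of medullary and marginal zone macrophages, was at 1196, 1789 and 2010 counts per 1000000 (CPM) summed UMIs of the selected cells in YUMMER1.7, YUMM1.7 and naive nodes. Cd209b was at 3736, 5038 and 3685 CPM. Cd5l, a secreted inhibitor of macrophage apoptosis, was at 1018, 926 and 431 CPM. With every cell thinned to 1000 UMIs, a Marco UMI was seen in 43.9% of 123 YUMMER1.7, 57.2% of 138 YUMM1.7 and 67.3% of 107 naive Siglec1+ macrophages. The same share was 0.668%, 0.885% and 1.46% among T and B cells of these libraries, whose median depths were 6480, 6991 and 6488 UMIs. A Cd209b UMI was seen in 52.8%, 72.5% and 80.4% of Siglec1+ macrophages, against 2.01%, 2.32% and 2.59% of T and B cells. Both genes were therefore far above the level of free RNA, and both were seen in a smaller share of cells in YUMMER1.7 nodes. Cd5l was the least often seen of the 3, in 34.1%, 41.3% and 16.8% of Siglec1+ macrophages, against 0.501%, 0.221% and 0.167% of T and B cells. Its share was smallest in naive nodes.

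Other macrophage genes ranged from frequent to nearly unseen. Vcam1, an adhesion molecule of sinus and red pulp macrophages, was seen in 55.3% of YUMMER1.7, 55.1% of YUMM1.7 and 47.7% of naive cells thinned to 1000 UMIs, and Timd4, a phosphatidylserine receptor, in 52.8%, 65.2% and 72.9%. Mertk, a kinase receptor for apoptotic cells, was seen in 30.1%, 34.8% and 24.3%. Lyve1 was seen in 2 of 123, 5 of 138 and 0 of 107 of these thinned cells, and Cd163 in 3, 2 and 0. Vsig4, a complement receptor of resident macrophages in several tissues, was at or near 0: 1 of 124, 2 of 140 and 0 of 113 cells had any UMI at full depth, and after thinning to 1000 UMIs it was seen in 0 of 107 naive cells, which allows a share of cells with a captured UMI of up to 3.39% at that depth and sets no limit on cells that express it. Set beside cells that met every criterion but had no Siglec1 UMI, among cells with at least 2000 UMIs, Siglec1+ macrophages had 1189, 1788 and 1974 CPM of Marco in YUMMER1.7, YUMM1.7 and naive nodes, against 50.1, 57.3 and 143 CPM in the Siglec1-negative cells. Il1b, the inflammasome cytokine, lay the other way, at 211, 173 and 102 CPM in Siglec1+ cells and 972, 930 and 741 CPM in Siglec1-negative cells. Both genes are among those listed for lying the same way in all 3 libraries, so that order was fixed by the choice.

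Per cell, the summed level of Marco and Cd209b was at least 1000 CPM in 68 YUMMER1.7, 105 YUMM1.7 and 96 naive cells. It lay between 200 and 1000 CPM in 4, 2 and 7 cells and under 200 CPM in 52, 33 and 10, of which 39, 29 and 8 had no UMI of either gene. The cells were divided at 500 CPM of both genes together, a limit chosen after their distribution had been seen, into marked cells above it and unmarked cells below it.

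Unmarked cells were 55 of 124 in YUMMER1.7, 34 of 140 in YUMM1.7 and 13 of 113 in naive nodes, or 44.4% (35.4 to 53.5), 24.3% (17.4 to 32.2) and 11.5% (6.27 to 18.9). The order was the same with limits of 200 CPM (41.9%, 23.6% and 8.85%) and 1000 CPM (45.2%, 25% and 15%). Among cells with at least 5000 UMIs the shares were 47.4%, 28.2% and 18.8%. Depth and the Siglec1 limit bear on this share: unmarked cells had medians of 18070, 15520.5 and 13551 UMIs with none under 2000, and Siglec1 itself was at 109, 118 and 97.2 CPM in them, against 361, 373 and 345 CPM in marked cells. Where at least 2 Siglec1 UMIs were asked for, 26 of 84, 11 of 94 and 3 of 55 cells were unmarked, which is 31.0%, 11.7% and 5.45%. Where the rule was applied to cells thinned to 2000 UMIs, 9 of 52, 5 of 60 and 2 of 31 were unmarked, or 17.3% (8.23 to 30.3), 8.33% (2.76 to 18.4) and 6.45% (0.791 to 21.4), whose intervals overlap.

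Marked cells alone were 69, 106 and 100 in YUMMER1.7, YUMM1.7 and naive nodes, 1.01% (0.790 to 1.28), 1.42% (1.17 to 1.72) and 0.955% (0.778 to 1.16) of kept cells. The share of marked cells in YUMMER1.7 nodes lay within counting error of that in naive nodes, with a log2 ratio of 0.09, and only the YUMM1.7 share was above the naive interval. Unmarked cells were 0.809%, 0.456% and 0.124% of kept cells.

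**Figure D1:**
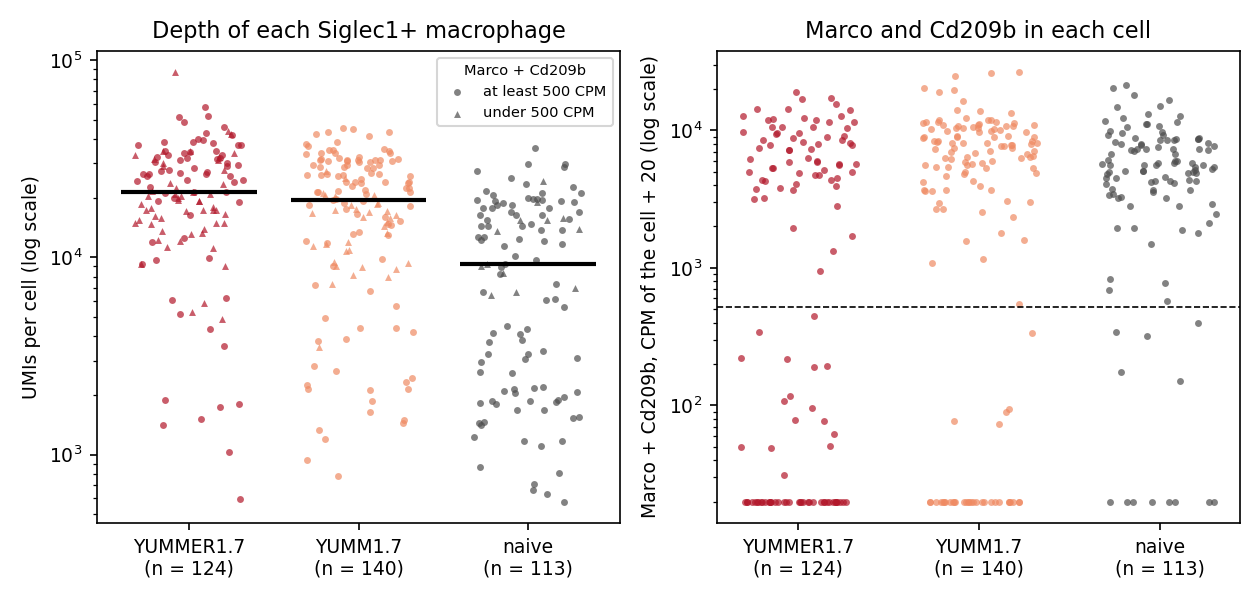
Each point is 1 Siglec1+ macrophage; the left panel gives its UMIs on a log scale with the median of the library as a bar, and the right panel the CPM of Marco and Cd209b together plus 20 on a log scale, with a dashed line at 500 CPM. Naive cells reach lower depths (median 9254 UMIs, against 21578.5 in YUMMER1.7 and 19500 in YUMM1.7), and the row of cells at 0 CPM holds 39 YUMMER1.7, 29 YUMM1.7 and 8 naive cells.

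Csf1r, the receptor of the macrophage growth factor, was at 505, 624 and 492 CPM in unmarked cells of YUMMER1.7, YUMM1.7 and naive nodes and at 552, 616 and 538 CPM in marked cells. The log2 ratios of unmarked over marked cells were -0.13 (-0.28 to 0.02), 0.02 (-0.16 to 0.20) and -0.13 (-0.48 to 0.21). Of genes with at least 30 UMIs, 8.84% were at least 2-fold higher and 7.48% at least 2-fold lower in unmarked than in marked cells of YUMMER1.7, 7.55% and 12.0% in YUMM1.7, and 7.43% and 15.8% in naive nodes.

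Genes of the sinus macrophage list lay on both sides. Leaving out Marco and Cd209b, 5 of 19 were at least 2-fold higher and 6 lower in unmarked than in marked cells of YUMMER1.7, 2 and 8 of 18 in YUMM1.7 and 0 and 9 of 17 in naive nodes, with medians of -0.36, -0.56 and -1.20. Lyve1, the hyaluronan receptor, was at 55.7, 74.3 and 0 CPM in unmarked and 8.02, 16.6 and 9.7 CPM in marked cells. Timd4, Cd5l, C6, Hmox1, Ccr2, Cx3cr1 and Itgax are described because they lay the same way in all 3 libraries. Timd4 was at 98.6, 24.1 and 30.4 CPM in unmarked cells of YUMMER1.7, YUMM1.7 and naive nodes, against 2797, 3198 and 2941 CPM in marked cells. Cd5l was at 10.3, 4.01 and 6.08 CPM in unmarked and 1691, 1133 and 499 CPM in marked cells. The terminal complement component C6, the haem oxygenase Hmox1 and the iron exporter Slc40a1 lay the same way, Hmox1 at 143, 122 and 60.8 CPM in unmarked and 1079, 1348 and 925 CPM in marked cells. In the list of iron and haem handling genes, 9 of 17 were at least 2-fold lower and 1 higher in unmarked cells of YUMMER1.7, 8 and 1 of 17 in YUMM1.7 and 7 and 0 of 16 in naive nodes.

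In the list of monocyte derivation, 11 of 17 genes were at least 2-fold higher and 2 lower in unmarked than in marked cells of YUMMER1.7, 9 and 2 of 16 in YUMM1.7 and 6 and 3 of 14 in naive nodes. Of all genes 8.84% were higher and 7.48% lower in YUMMER1.7, 7.55% and 12.0% in YUMM1.7, and 7.43% and 15.8% in naive nodes. In the shorter list of monocyte markers, 2, 3 and 2 of 4 genes were higher, and 1 was lower in each library. The genes named next are among the higher ones. Ccr2, the receptor that brings monocytes out of the marrow, was at 183, 247 and 243 CPM in unmarked cells of YUMMER1.7, YUMM1.7 and naive nodes and at 8.59, 3.14 and 21.3 CPM in marked cells. Cx3cr1, the fractalkine receptor, was at 230, 305 and 304 CPM in unmarked and 22.3, 16.6 and 11.6 CPM in marked cells, and Itgax, which encodes CD11c, one of the bead targets, at 105, 94.3 and 66.9 and at 6.87, 5.38 and 4.85 CPM. The MHC class II chain H2-Aa was at 5223, 6428 and 4747 CPM in unmarked and 1640, 1225 and 1915 CPM in marked cells. Over the MHC class II list, 7 of 9, 8 of 9 and 5 of 8 genes were at least 2-fold higher in unmarked cells, with medians of 1.42, 2.16 and 1.06 on the log2 scale, beside 0.05, -0.09 and -0.13 over all genes. Other genes differed between libraries in this respect. Apoe, a lipid carrier, had log2 ratios of -1.35, -0.93 and 0.26 for unmarked over marked cells, and the cytokine and chemokine list had medians of 0.95, 0.23 and -1.37. The naive values rest on 13 unmarked cells.

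**Figure D2:**
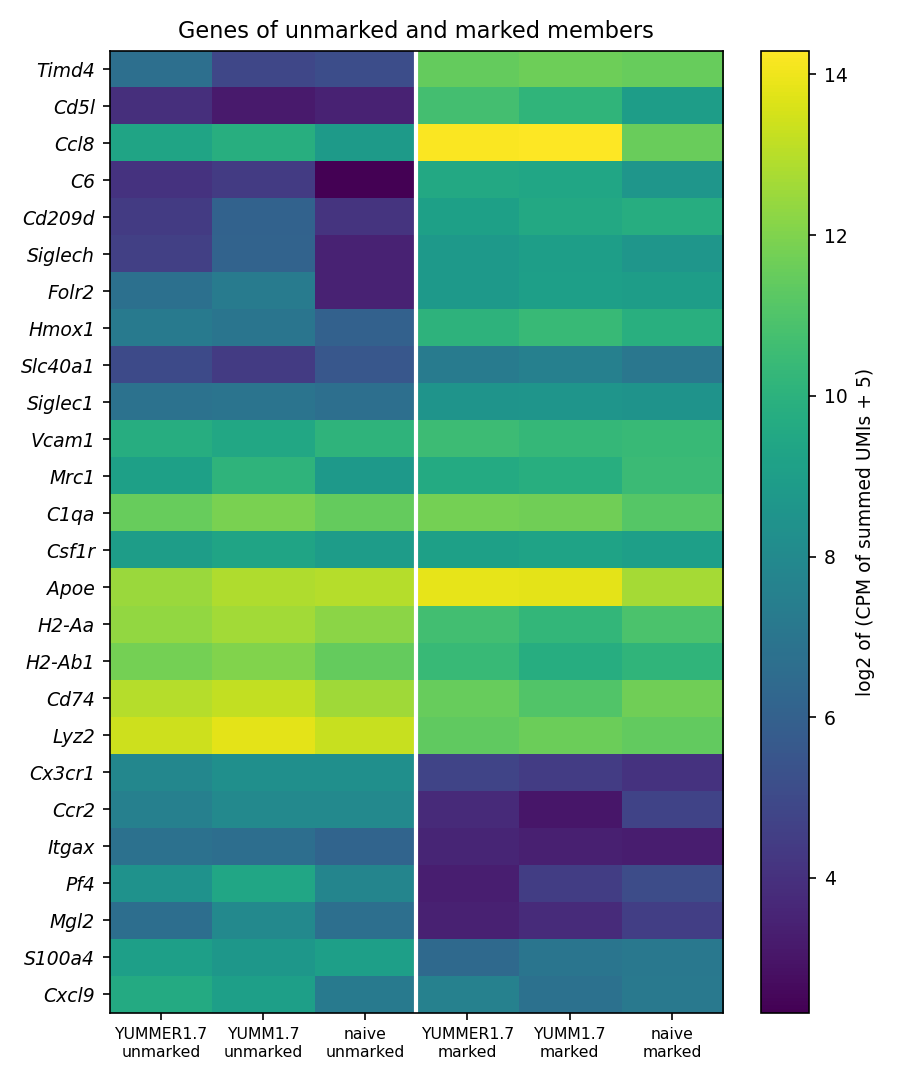
Colour gives log2(CPM + 5) of 26 genes in the summed unmarked (left) and marked (right) cells of each library. Ccr2, Cx3cr1, Itgax and H2-Aa are brighter in the 3 unmarked columns, and Timd4, Cd5l, C6 and Ccl8 in the 3 marked ones.

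Ccl8 was the most abundant of the genes named below for being higher in both tumour arms than in naive nodes. It encodes a chemokine that in mice acts on CCR8, a receptor of type 2 helper T cells, regulatory T cells and some myeloid cells. In the summed cells it was at 11716 CPM in YUMMER1.7 and 16588 CPM in YUMM1.7 nodes, against 2661 CPM in naive nodes. The log2 ratio was 2.14 (2.09 to 2.19) for YUMMER1.7 and 2.64 (2.59 to 2.69) for YUMM1.7 over naive, both taken against the same naive library.

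The Ccl8 difference lay mainly in the marked cells. In these it was at 19127, 20094 and 3012 CPM in YUMMER1.7, YUMM1.7 and naive nodes, with log2 ratios of 2.67 (2.61 to 2.72) and 2.74 (2.69 to 2.79) over naive and -0.07 (-0.09 to -0.05) for YUMMER1.7 over YUMM1.7. In unmarked cells it was at 623, 899 and 456 CPM. The median unmarked cell had 56.0, 92.8 and 73.8 CPM. The highest unmarked cell had 20042, 12677 and 3100 CPM, so the unmarked sums lean on single cells. The median marked cell had 15945, 14119 and 2115 CPM, and the quartiles of marked cells ran from 6067 to 26572, from 4873 to 24681 and from 731 to 4326 CPM. The ranges of single cells overlapped, but the upper quartile of naive marked cells lay below the lower quartile of marked cells of either tumour.

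The Ccl8 difference was as large among deep cells: in marked cells with at least 5000 UMIs the medians were 16758 (YUMMER1.7, 60 cells), 15657 (YUMM1.7, 84 cells) and 1810 CPM (naive, 56 cells). The share of marked cells with a Ccl8 UMI was high in every library, 95.2%, 93.9% and 84.2% after thinning to 2000 UMIs. Of T and B cells thinned to 1000 UMIs, 6.85%, 5.97% and 3.68% had a Ccl8 UMI, against 59.3%, 69.6% and 70.1% of all Siglec1+ macrophages at that depth. Most marked cells of every arm thus had Ccl8 and the tumour arms had more of it per cell.

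**Figure D3:**
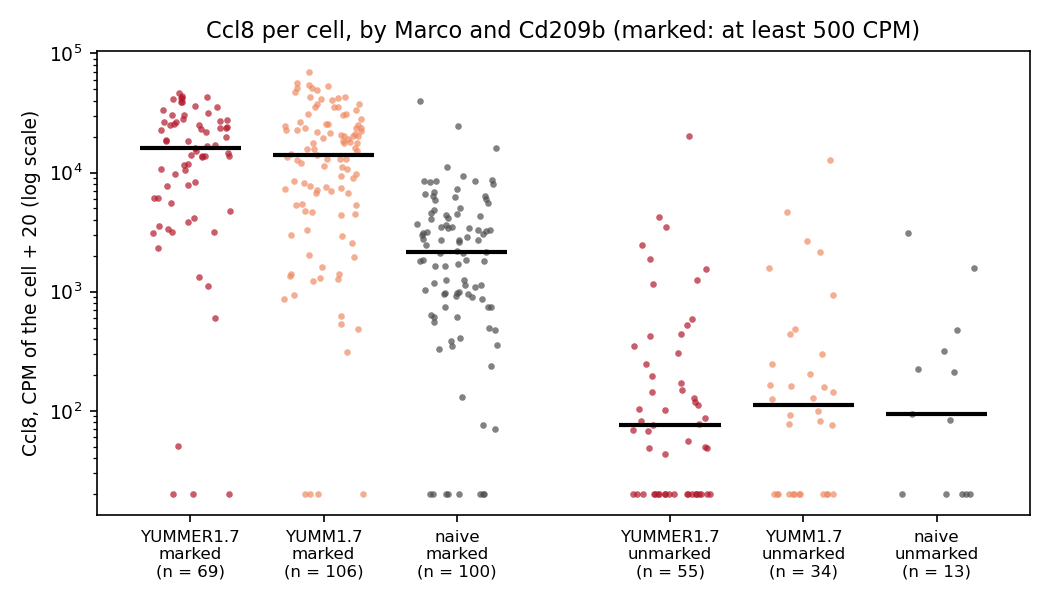
Each point is 1 Siglec1+ macrophage, with its Ccl8 level on a log scale, shown apart for marked and unmarked cells (500 CPM or more, or less, of Marco and Cd209b). Marked cells of both tumour arms centre on 15945 and 14119 CPM and marked naive cells on 2115 CPM. Unmarked cells centre on 56.0, 92.8 and 73.8 CPM in YUMMER1.7, YUMM1.7 and naive nodes, with single cells up to 20042, 12677 and 3100 CPM.

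Ccl8 lies on chromosome 11 in a cluster of chemokine genes, and its neighbours Ccl2, Ccl7 and Ccl12 did not share the difference. Ccl2, a CCR2 ligand that draws monocytes, was at 472, 202 and 339 CPM in YUMMER1.7, YUMM1.7 and naive nodes, log2 ratios of 0.48 (0.32 to 0.64) and -0.75 (-0.94 to -0.56) over naive. Ccl7, a further monocyte chemokine, was at 538, 392 and 503 CPM, and Ccl12, the mouse MCP-5, at 1106, 1113 and 1168 CPM. The 300 bases around the Ccl8 start site (RefSeq, GRCm38.p6, chr11:82114935-82115234, plus strand, 250 bases before the start and 50 after) are printed because Ccl8 is the leading gene. Capitals mark the 1 match to TATAAA, which begins at -32.

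Ccl8: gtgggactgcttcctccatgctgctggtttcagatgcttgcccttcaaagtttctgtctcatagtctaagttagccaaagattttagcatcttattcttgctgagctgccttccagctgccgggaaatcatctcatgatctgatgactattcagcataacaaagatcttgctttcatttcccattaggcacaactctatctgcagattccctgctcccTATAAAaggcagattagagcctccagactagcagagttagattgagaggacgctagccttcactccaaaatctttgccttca

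TATAAA was searched on both strands and is in 3827 of 27025 promoters of this length (14.2%), and in 8 of 17 promoters of the inflammatory cytokine and chemokine list.

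Over all Siglec1+ macrophages, 8967 genes had at least 30 UMIs in YUMMER1.7 and naive nodes together. Of these 4.08% were at least 2-fold higher in YUMMER1.7 (366 genes) and 4.19% at least 2-fold lower (376 genes). For YUMM1.7 over naive the shares were 2.48% higher (218 genes) and 4.01% lower (352 genes) of 8788, and for YUMMER1.7 over YUMM1.7 2.84% higher (270 genes) and 1.17% lower (111 genes) of 9491. Scaling by the trimmed mean of M-values moved the median of all genes from -0.07 to 0.04 and from -0.07 to 0.05 for the comparisons with naive, and gave 445 higher and 281 lower genes for YUMMER1.7 over naive and 292 and 253 for YUMM1.7 over naive. In marked cells alone 2.77% of 7912 genes were at least 2-fold higher and 5.19% lower in YUMMER1.7 than in naive, 2.52% and 4.9% of 8310 in YUMM1.7 than in naive, and 1.29% and 1.26% of 8593 in YUMMER1.7 than in YUMM1.7.

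The genes furthest above naive in both tumour arms were named by the bound of their interval nearest 0, so their ratios are largest by choice. Beside Ccl8, C4b, which encodes the complement protein C4 of the classical and lectin pathways, was at 236 and 258 CPM in YUMMER1.7 and YUMM1.7 nodes, against 49.3 CPM in naive nodes. Its log2 ratios were 2.26 (1.87 to 2.67) and 2.39 (2.0 to 2.80). C4a is a near-identical copy, and reads of the pair may be divided or dropped in counting. A C4b UMI was seen in 30 of 62 YUMMER1.7, 36 of 98 YUMM1.7 and 8 of 76 naive marked cells thinned to 2000 UMIs, or 48.4%, 36.7% and 10.5%.

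Several of these genes handle lipids or matrix. Pltp, the phospholipid transfer protein and a target of the sterol receptor LXR, was at 369 and 333 CPM in YUMMER1.7 and YUMM1.7 nodes, against 99.5 CPM in naive nodes, log2 ratios of 1.89 (1.62 to 2.18) and 1.74 (1.47 to 2.03). Angptl4, an inhibitor of lipoprotein lipase, was at 59.1 and 71.9 CPM, against 15.9 CPM. Tgm2, a transglutaminase that aids the engulfment of apoptotic cells, was at 130.5 and 67.8 CPM, against 14.2 CPM in naive nodes, with log2 ratios of 3.20 (2.5 to 3.99) and 2.25 (1.54 to 3.06). Of the 10 genes of this kind, Tgm2 was furthest apart between the tumours, at a log2 ratio of 0.94 (0.69 to 1.21) for YUMMER1.7 over YUMM1.7, which was 0.45 in marked cells.

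Inflammasome genes were among them too. Il18, the cytokine released by caspase-1, was at 395 and 423 CPM in YUMMER1.7 and YUMM1.7 nodes, against 163 CPM in naive nodes, log2 ratios of 1.28 (1.06 to 1.5) and 1.37 (1.15 to 1.60). Mefv, which encodes the sensor pyrin, was at 54.9 and 50.6 CPM, against 14.2 CPM. Wfdc17, a secreted protein with a WAP domain, was at 761 and 762 CPM, against 243 CPM. The last of the 10 were Nxpe5, at 56.0 and 58.3 CPM against 10.9 CPM, and Rbfox1, a splicing regulator best known from neurons, with UMIs in 18 YUMMER1.7 and 16 YUMM1.7 cells and in 1 naive cell. All 10 genes were at least 2-fold higher than naive in both tumour arms in marked cells alone as well. After thinning to 1000 UMIs 9 of them kept a ratio above 1 on the log2 scale. Mefv gave no thinned ratio in YUMMER1.7 and 0.05 in YUMM1.7. The thinned ratios carry no interval, and those of the genes at low levels rest on few UMIs. Rbfox1, Nxpe5 and Angptl4 had 2, 13 and 19 naive UMIs even at full depth, so thinning cannot decide for them.

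**Figure D4:**
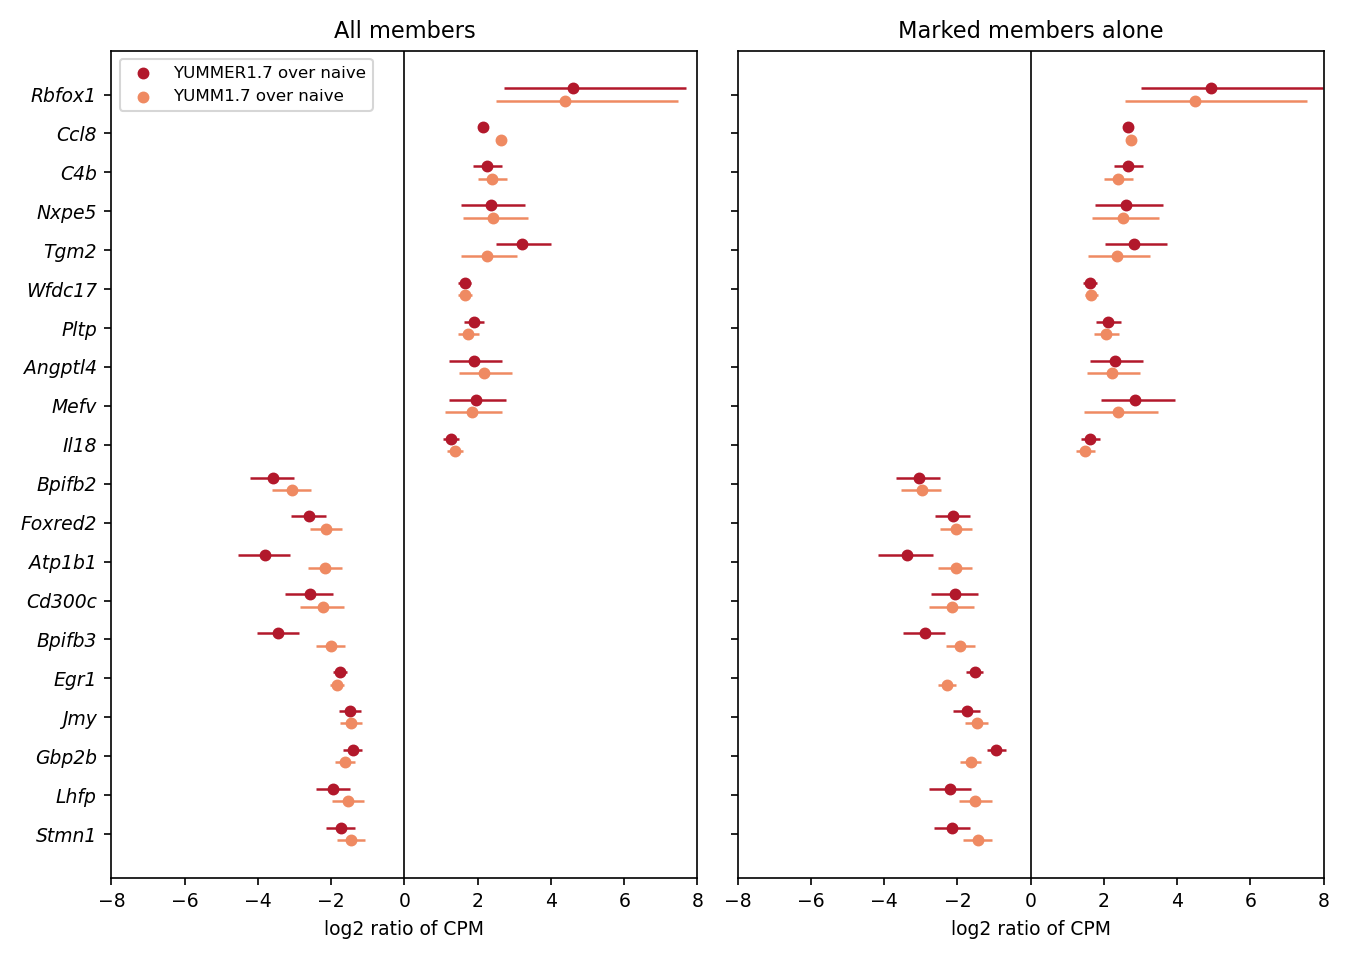
Points give the log2 ratio of each named gene for YUMMER1.7 and YUMM1.7 over naive with 95% intervals for counting error, in all Siglec1+ macrophages and in marked cells alone. Ccl8 lies at 2.14 and 2.64 in all cells and at 2.67 and 2.74 in marked cells; the lower genes run from -1.41 for Gbp2b to -3.80 for Atp1b1 in YUMMER1.7.

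The genes furthest below naive in both tumour arms were of several kinds. Bpifb2 and Bpifb3, of a family of secreted lipid-binding proteins, were at 9.96 and 14.3 CPM and at 11.3 and 30.4 CPM in YUMMER1.7 and YUMM1.7 nodes, against 120 and 123 CPM in naive nodes. The log2 ratios of Bpifb2 were -3.60 (-4.22 to -3.01) and -3.07 (-3.62 to -2.55). Bpifb2 was at 16.6, 17.5 and 138 CPM in marked cells of YUMMER1.7, YUMM1.7 and naive nodes and at 0, 0 and 12.2 CPM in unmarked ones, and it was seen in 3 of 62, 1 of 98 and 16 of 76 marked cells thinned to 2000 UMIs. Bpifb2 belongs to the list of sinus macrophage genes, as do the next genes to be named.

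Cd209f and Cd209g, lectins related to Cd209b, were lower as well. Cd209f was at 17.5 and 23.1 CPM in YUMMER1.7 and YUMM1.7 nodes, against 103 CPM in naive nodes, and Cd209g at 3.09 and 8.43 CPM against 47.7 CPM. In marked cells Cd209f was at 4.01, 20.2 and 119 CPM. Few cells carried these genes: 6, 10 and 29 cells had a Cd209f UMI, and 1 cell held 43.1%, 34.9% and 24.4% of the UMIs. The homologous genes of this family may share reads.

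Atp1b1, a subunit of the sodium pump, was at 7.21 and 22.4 CPM in YUMMER1.7 and YUMM1.7 nodes, against 100.3 CPM in naive nodes. Cd300c, an immunoglobulin-like receptor, was at 10.3 and 13.2 CPM against 61.9 CPM, and Gbp2b, a guanylate-binding protein, at 80.0 and 68.9 CPM against 212 CPM. Lhfp was at 22 and 29.0 CPM against 84.4 CPM. Foxred2, an oxidoreductase of the endoplasmic reticulum, Jmy, an actin nucleator, and Stmn1, a microtubule destabiliser, had log2 ratios between -1.47 and -2.61, and after thinning to 1000 UMIs these 3 lay between -0.06 and -0.88, no longer 2-fold apart in either tumour. After thinning Cd300c was at -1.52 and -0.69, Gbp2b at -1.37 and -0.84 and Lhfp at -2.01 and -0.59, no longer 2-fold apart in YUMM1.7. The thinned ratios of these genes rest on few UMIs and carry no interval. In marked cells thinned to 2000 UMIs, Foxred2 was seen in 4.84% of YUMMER1.7, 6.12% of YUMM1.7 and 26.3% of naive cells. Jmy was seen in 12.9%, 13.3% and 25% of them and Stmn1 in 6.45%, 10.2% and 14.5%.

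Egr1, an immediate early transcription factor, was at 130 and 123 CPM in YUMMER1.7 and YUMM1.7 nodes, against 441 CPM in naive nodes, log2 ratios of -1.76 (-1.95 to -1.57) and -1.84 (-2.04 to -1.64). Egr1 is one of 24 genes of a list that digestion and handling are known to induce. In this list 6 were at least 2-fold lower and 0 higher in YUMMER1.7 than in naive nodes, and 8 lower and 0 higher in YUMM1.7. Of all genes 4.19% were lower and 4.08% higher in YUMMER1.7, and 4.01% and 2.48% in YUMM1.7. Among the lower genes of the list were Fos at 387, 369 and 835 CPM and Dusp1 at 264, 258 and 549 CPM. The heat shock gene Hspa1a did not follow, at 157, 88.0 and 90.3 CPM. The median of the list was -0.04 for YUMMER1.7 and -0.57 for YUMM1.7 over naive, beside -0.07 for all genes in each comparison. Its part in the other results was not tested.

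Of 23 genes of the type I interferon response, 4 were at least 2-fold higher and 0 lower in YUMMER1.7 than in naive nodes. In YUMM1.7 5 were higher and 0 lower. Of all genes 4.08% were higher and 4.19% lower in YUMMER1.7, and 2.48% and 4.01% in YUMM1.7. The medians of the list were 0.57 and 0.56, beside -0.07 over all genes, and 0.57 and 0.43 in marked cells alone. The difference was not particular to Siglec1+ macrophages, in which the list summed to 3583, 3167 and 2310 CPM in YUMMER1.7, YUMM1.7 and naive nodes. All other kept cells had 2716, 2351 and 1282 CPM. The cells that met every criterion but had no Siglec1 UMI had 3092, 2610 and 2060 CPM. Oasl1, an inhibitor of Irf7 translation, was at 29.9 and 20.5 CPM in YUMMER1.7 and YUMM1.7 nodes, against 4.18 CPM in naive nodes. Irf7, the factor that amplifies interferon transcription, was at 283 and 184 CPM against 97.0 CPM, and Ifi44 at 56.3 and 38.9 CPM against 14.2 CPM. Ifit3, which binds viral RNA complexes with its relatives, and the antiviral enzyme Rsad2 were highest in YUMM1.7 nodes, Ifit3, which has the close copy Ifit3b, at 55.6, 86.5 and 36.8 CPM and Rsad2 at 45.7, 63.1 and 26.8 CPM. The ubiquitin-like modifier Isg15 was at 190, 151 and 128 CPM.

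Interferon-stimulated genes share a promoter element bound by the factor ISGF3, searched here as GAAANNGAAA on both strands (TTTCNNTTTC when read on the other). It was found in 943 of 27025 promoters of 300 bases (3.49%) and in 11 of the 18 promoters of the interferon list that had one, against 0 of 17 of the cytokine and chemokine list and 1 of 16 of the sinus macrophage list. Promoters of a gene of this list that was 2-fold higher in YUMM1.7 and of a classical member are shown, from RefSeq, GRCm38.p6, with the matches in capitals. Ifit3 is at chr19:34583279-34583578 on the plus strand with 2 matches on its minus strand, at -156 and -122. Isg15 is at chr4:156200769-156201068 on the minus strand with 3 matches, at -78, -72 and -66, which overlap in a single run.

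Ifit3: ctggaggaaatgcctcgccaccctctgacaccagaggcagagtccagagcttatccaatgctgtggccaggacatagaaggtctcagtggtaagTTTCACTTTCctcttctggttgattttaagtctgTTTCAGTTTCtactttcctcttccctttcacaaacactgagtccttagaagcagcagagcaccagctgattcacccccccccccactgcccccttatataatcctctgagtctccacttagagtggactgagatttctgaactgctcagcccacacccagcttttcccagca
Isg15: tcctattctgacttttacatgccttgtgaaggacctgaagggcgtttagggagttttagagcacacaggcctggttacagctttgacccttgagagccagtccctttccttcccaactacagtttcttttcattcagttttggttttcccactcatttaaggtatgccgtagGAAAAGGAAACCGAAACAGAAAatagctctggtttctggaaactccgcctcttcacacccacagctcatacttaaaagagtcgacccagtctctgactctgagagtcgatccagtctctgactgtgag

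A match is a description of these letters, and nothing is drawn from it about binding.

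Genes that respond mainly to interferon gamma had medians nearer 0. The list of 19 had 1 gene at least 2-fold higher and 1 lower in YUMMER1.7 than in naive nodes. In YUMM1.7 it had 0 and 1. Of all genes 4.08% were higher and 4.19% lower in YUMMER1.7, and 2.48% and 4.01% in YUMM1.7. The medians of the list were 0.34 and 0.17. Its highest gene in YUMMER1.7, the T cell chemokine Cxcl9, was at 430, 185 and 141 CPM in YUMMER1.7, YUMM1.7 and naive nodes. It rested on few cells, since 1 cell held 46.0%, 28.6% and 51.5% of its UMIs, and in marked cells it was at 184, 107 and 141 CPM.

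Of 13 complement genes, 3 were at least 2-fold higher and 0 lower in YUMMER1.7 than in naive nodes, beside 4.08% and 4.19% of all genes. Of 12 in YUMM1.7, 1 was higher and 0 lower, beside 2.48% and 4.01%. The medians of the list were 0.53 and 0.46 in all cells and 0.39 and 0.20 in marked cells. Among the 3 higher in YUMMER1.7, Serping1, the inhibitor of C1, was at 32.6, 4.4 and 2.51 CPM, with 89.5% of its YUMMER1.7 UMIs in 1 cell. The alternative pathway factor Cfb was at 513, 479 and 267 CPM in YUMMER1.7, YUMM1.7 and naive nodes, C3, the central component, at 248, 162 and 110 CPM, and C6 at 450, 562 and 336 CPM. Cd55, which protects cells from complement, was the lowest of the list, at a log2 ratio of -0.99 and -0.98.

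Among receptors for antibody, Fcgr2b, the inhibitory Fc receptor by which sinus macrophages hold immune complexes, was at 450 and 384 CPM in YUMMER1.7 and YUMM1.7 nodes, against 165 CPM in naive nodes, log2 ratios of 1.45 (1.23 to 1.68) and 1.22 (1.0 to 1.45). In the list of Fc and lectin receptors 7 of 24 genes were at least 2-fold higher and 1 lower in YUMMER1.7 than in naive nodes, and 2 and 0 of 20 in YUMM1.7. Gas6, the bridge between phosphatidylserine and Mertk, was at 131 and 173 CPM against 63.5 CPM, and Mertk at 531 and 592 CPM against 361 CPM, which is under 2-fold. Axl, the related receptor, was at 385, 429 and 454 CPM and so did not share this order. In the list of scavenging and apoptotic cell uptake 5 of 23 genes were at least 2-fold higher in YUMMER1.7 than in naive nodes. In YUMM1.7 4 of 21 were, and 0 were lower in either. Beside both lists, 4.08% of all genes were higher and 4.19% lower in YUMMER1.7, and 2.48% and 4.01% in YUMM1.7.

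In the list of lipid handling, 9 of 26 genes were at least 2-fold higher and 1 lower in YUMMER1.7 than in naive nodes. In YUMM1.7 3 of 23 were higher and 0 lower. Of all genes 4.08% were higher and 4.19% lower in YUMMER1.7, and 2.48% and 4.01% in YUMM1.7. In marked cells 5 of 22 genes of the list were higher and 2 lower in YUMMER1.7, and 3 and 0 of 22 in YUMM1.7. The shares of all genes in marked cells were 2.77% and 5.19%, and 2.52% and 4.9%. Apoe, the lipid carrier and one of the most abundant transcripts of these cells, was at 11064 and 12896 CPM in YUMMER1.7 and YUMM1.7 nodes, against 6759 CPM in naive nodes. In marked cells it was at 14622, 14123 and 6578 CPM, whereas unmarked cells had 5740, 7408 and 7895 CPM. Abca1, the cholesterol exporter and a further target of LXR, was at 540, 633 and 863 CPM, with ratios of -0.68 and -0.45 that were -0.46 and 0.25 after thinning. Lpl, lipoprotein lipase, was at 106, 129 and 247 CPM, log2 ratios of -1.22 (-1.45 to -0.98) and -0.94 (-1.17 to -0.71).

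In the list of sinus macrophage genes 5 of 23 were at least 2-fold higher and 4 lower in YUMMER1.7 than in naive nodes. In YUMM1.7 3 of 22 were higher and 4 lower. Of all genes 4.08% were higher and 4.19% lower in YUMMER1.7, and 2.48% and 4.01% in YUMM1.7. The medians of the list were -0.12 and -0.04. Cd5l had log2 ratios of 1.24 (1.10 to 1.38) in YUMMER1.7 and 1.10 (0.97 to 1.24) in YUMM1.7. Timd4 had log2 ratios of -0.57 and 0.04 in all cells and of -0.07 and 0.12 in marked cells, and Cd209d of -1.18 and -0.29 in all cells and of -0.68 and -0.24 in marked cells. Marco and Cd209b define the marked cells, and their levels there are a description: Marco was at 1989, 2188 and 2326 CPM and Cd209b at 6217, 6161 and 4264 CPM in YUMMER1.7, YUMM1.7 and naive nodes. Mrc1, the mannose receptor, was at 806, 904 and 1414 CPM in marked cells, but over all cells thinned to 1000 UMIs its ratios were -0.24 and 0.19. Asic2, an acid-sensing ion channel gene, was at 1527, 2041 and 2794 CPM in marked cells and at 66.0, 4.01 and 0 CPM in unmarked ones.

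MHC class II genes changed order with the cells counted. Over all Siglec1+ macrophages the median of 9 genes was 0.66 for YUMMER1.7 and 0.10 for YUMM1.7 over naive, with H2-Aa at 3075, 2175 and 2304 CPM. In marked cells the medians were -0.12 and -0.38, with H2-Aa at 1640, 1225 and 1915 CPM. The list of MHC class I genes had medians of -0.02 and -0.09.

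Of genes of alternative activation, 5 of 17 were at least 2-fold lower and 2 higher in YUMMER1.7 than in naive nodes, beside 4.19% lower and 4.08% higher of all genes. In YUMM1.7 7 of 15 were lower and 1 higher, beside 4.01% and 2.48% of all genes. The list had medians of -0.37 and -0.46, and -0.88 and -1.04 in marked cells. Il10, the anti-inflammatory cytokine, was at 34, 50.6 and 109 CPM in YUMMER1.7, YUMM1.7 and naive nodes, log2 ratios of -1.68 (-2.07 to -1.29) and -1.10 (-1.46 to -0.75). Retnla, the secreted RELM alpha, was at 164, 143 and 461 CPM, but 1 cell held 92.2%, 97.9% and 99.6% of it, so its place among the lower genes rests on 1 naive cell. Fn1, the lowest gene of the list in YUMM1.7 at a log2 ratio of -2.66, had UMIs in only 3 of 113 naive cells. Proliferation genes were low in every library. Of these, 4 of 15 and 7 of 13 were at least 2-fold lower in YUMMER1.7 and in YUMM1.7 than in naive nodes, none higher. The shares of all genes are those given above for alternative activation. Mki67 was at 19.9, 10.6 and 30.9 CPM, with ratios over naive of -0.64 and -1.54. After thinning to 1000 UMIs these were 1.38 and 1.22, but too few Mki67 UMIs remained at that depth to give a direction. The lysosome and cathepsin list had 0 of 23 genes 2-fold apart in either comparison and medians of 0.26 and 0.29.

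Inflammatory cytokines and chemokines differed from naive in both directions. Of 20 genes 6 were at least 2-fold higher and 2 lower in YUMMER1.7, beside 4.08% and 4.19% of all genes. Of 19 in YUMM1.7, 3 were higher and 3 lower, beside 2.48% and 4.01%. The medians of the list were 0.44 and -0.05 in all cells and 0.15 and -0.45 in marked cells. Beside Ccl8, the chemokine Ccl6 had log2 ratios of 1.74 and 1.29 over naive in YUMMER1.7 and YUMM1.7, and Ptgs2 of 1.46 and 1.08. Ccl5 lay the other way, at -2.98 and -3.87, as did Il10. Il1b was at 210, 172 and 105 CPM over all cells of YUMMER1.7, YUMM1.7 and naive nodes. In unmarked cells it was at 373, 719 and 182 CPM, and in marked cells at 102, 49.8 and 92.1 CPM. Checkpoint genes had 0 of 16 higher and 1 lower in each comparison, with medians of 0.05 and -0.15. Toll-like receptors and adaptors had 2 of 22 higher and 0 lower in YUMMER1.7 and 0 of 20 and 1 in YUMM1.7. Such small counts in these 2 lists cannot be told apart from the shares of all genes given above.

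**Figure D5:**
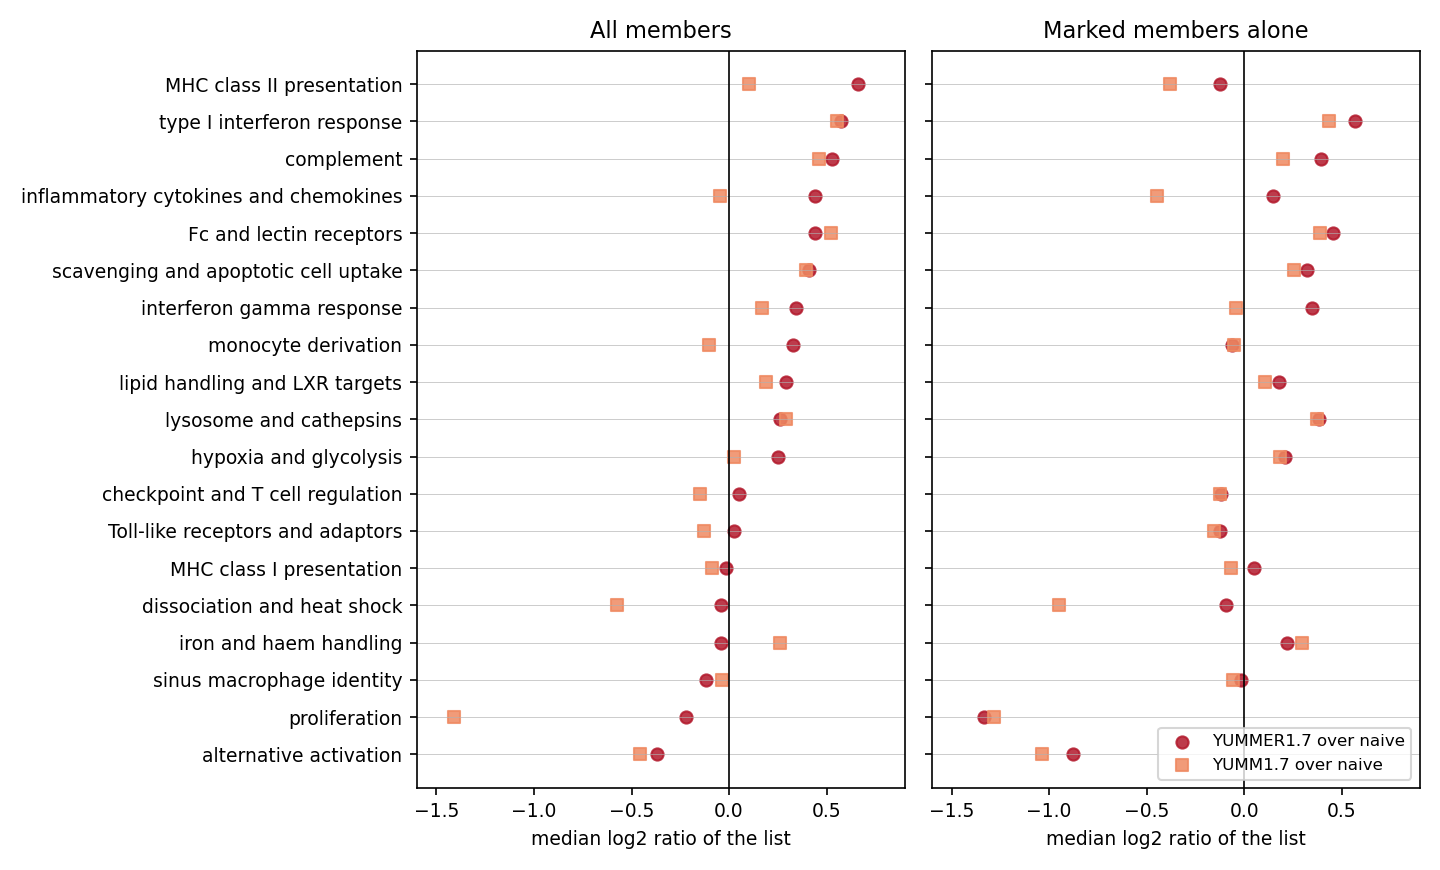
Each row is a gene list and each point its median log2 ratio over naive, in all Siglec1+ macrophages (left) and in marked cells alone (right). The type I interferon list lies at 0.57 and 0.56 on the left and at 0.57 and 0.43 on the right, while the MHC class II list lies at 0.66 and 0.10 on the left and at -0.12 and -0.38 on the right.

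Between the tumours, 6 genes per direction were named by the same kind of bound. Ccl2 was at 472 CPM in YUMMER1.7 and 202 CPM in YUMM1.7 nodes, a log2 ratio of 1.23 (1.08 to 1.37), and 1.22 in marked cells. Hbegf, a ligand of the epidermal growth factor receptor, was at 102 CPM in YUMMER1.7 and 41.8 CPM in YUMM1.7 nodes, a log2 ratio of 1.28 (0.97 to 1.61), and its receptor Egfr lay the other way, at 30.6 and 75.2 CPM, a log2 ratio of -1.30 (-1.67 to -0.93). Lipg, endothelial lipase, was at 67.0 CPM in YUMMER1.7 and 26.8 CPM in YUMM1.7 nodes. In marked cells the ratios of Hbegf, Egfr and Lipg were 1.16, -0.85 and 1.25.

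Other differences between the tumours were smaller, turned round or rested on low levels in marked cells. Il4i1, an amino acid oxidase that restrains T cells, had a log2 ratio of 1.21 (0.97 to 1.46) for YUMMER1.7 over YUMM1.7 in all cells and of -0.44 in marked cells, at 46.4 and 62.8 CPM. Fam20c, a secretory kinase, and Asb2, a ubiquitin ligase subunit, had ratios of 1.79 and 1.69 in all cells and of 1.48 and 2.05 in marked cells, where they were at low levels: 13.7 and 4.93 CPM for Fam20c and 7.45 and 1.79 CPM for Asb2 in YUMMER1.7 and YUMM1.7. In unmarked cells they were at 74.6 and 38.1 CPM and at 89.2 and 60.2 CPM. Below YUMM1.7 were Fgfr1, a growth factor receptor, Kcnj16, a potassium channel, Uaca, the helicase Ddx60 and the lectin Cd209d, with ratios from -0.89 to -1.19 in all cells and from -0.44 to -0.85 in marked cells.

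Transcripts of other cell types were present in some of the selected cells. At least 3 UMIs and 300 CPM of neutrophil genes were found in 7 YUMMER1.7, 1 YUMM1.7 and 0 naive cells, of natural killer cell genes in 0, 0 and 5, and of dendritic cell genes in 12, 4 and 5. The neutrophil list, of which 6, 5 and 6 of 7 genes were detected, summed to 485, 179 and 201 CPM, with S100a8 at 179, 15.4 and 25.9 CPM and 70.6% of its YUMMER1.7 UMIs in 1 cell. The natural killer list summed to 1.72, 8.07 and 229 CPM. The monocyte list summed to 948, 974 and 816 CPM. The endothelial list, which includes Lyve1, summed to 217, 279 and 273 CPM, against 80.0, 73.7 and 92.0 CPM in all other kept cells. The limits on other lineages covered neither the monocyte nor the endothelial list. Without cells over any such limit, 105, 135 and 103 cells remained, in which Ccl8 had log2 ratios of 2.24 and 2.59 over naive, C4b of 2.34 and 2.27, and the count of genes at least 2-fold higher in YUMMER1.7 than in YUMM1.7 was 134 in place of 270.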

How the data were processed

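Single-cell RNA-seq was made from digested lymph nodes of C57Bl/6 mice, with 1 library enriched for CD11b+ and CD11c+ cells and 1 labelled as depleted of CD45+ cells per arm. The deposited values are raw UMI counts per gene and barcode, made with Cell Ranger 8.0.1 on mm10 per the submitters' processing notes, while the file headers give 8.0.1 for the enriched and 7.0.0 for the depleted matrices. The handling of reads that map to several genes is not given in the sources used here.

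Kept barcodes had 500 or more UMIs, 300 or more genes and no more than 10% of UMIs from mitochondrial genes. The rule, the gene lists and the cell types compared were chosen with earlier results of these data known, and the division by Marco and Cd209b, the limit on markers of other lineages and the subtraction scaled by 9 lymphocyte genes were chosen after the data were seen. UMIs of the selected cells were summed per library and scaled to CPM. Ratios carry exact conditional binomial intervals and shares exact Clopper-Pearson intervals, all at 95%. A gene counted as 2-fold apart had at least 30 UMIs in the pair of libraries and a log2 ratio of at least 1 in size.

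Named genes were the 10 per direction furthest from naive in both tumour arms and the 6 per direction furthest apart between the tumours, ranked by the interval bound nearest 0, with no fewer than 30 UMIs and 30 CPM in whichever library was higher, a level at or above that of the other kept cells and at most 20% of UMIs from 1 cell. Left out were genes of the rule, those of ribosomes, mitochondria and haemoglobin, antigen receptor genes of B and T cells, sex-linked genes and unnamed models. Members of the lists were also named as examples.

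Doublets were left in, and cells above the 95th percentile of the Scrublet score of their library were removed as an alternative. Other alternatives changed the limits on UMIs, mitochondrial share, Siglec1 and C1qa, the scaling, the depth (thinning to 1000 or 2000 UMIs), the weight of each cell, the minimum of UMIs and the free RNA. The ratios and intervals were run on simulated counts that held counting error only. This cannot show how they behave under spread between cells or between libraries. The tools were Python 3.11.15 with numpy 2.4.6, scipy 1.17.1, pandas 2.3.3, scanpy 1.11.5 and matplotlib 3.10.9, and R 4.3.3 with edgeR 4.0.16 for the trimmed mean of M-values.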

Additional observations from a re-analysis of the deposited data

How the results depend on the processing

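No paired analysis was possible because each arm had 1 library, and leaving out a replicate was not possible for the same reason. The log2 ratio of the share of kept cells was 1.36 for YUMMER1.7 and 1.19 for YUMM1.7 over naive with at most 5% mitochondrial UMIs, 1.23 and 1.26 with at least 2 Siglec1 UMIs, and 1.27 and 1.38 when cells were thinned to 2000 UMIs before the rule. In marked cells alone it was 0.0867 for YUMMER1.7 over naive and -0.49 for YUMMER1.7 over YUMM1.7. Genes at least 2-fold higher and lower in YUMMER1.7 than in naive nodes (366 and 376) numbered 77 and 41 after thinning to 1000 UMIs, 762 and 778 with a minimum of 10 UMIs, and 142 and 147 with a minimum of 100. The higher ones numbered 630 with equal weight per cell, 644 with the library profile subtracted and 219 in marked cells. For YUMM1.7 over naive (218 and 352) the counts were 60 and 39 after thinning, 370 and 1345 with the profile subtracted, 546 and 740 with a minimum of 10 UMIs and 63 and 130 with a minimum of 100, and 489 were higher with equal weight. For YUMMER1.7 over YUMM1.7 (270 and 111) they were 41 and 32 after thinning, 1816 and 362 with the profile subtracted, 657 and 339 with a minimum of 10 UMIs and 94 and 20 with a minimum of 100, 206 were lower with equal weight, and 175 were higher without Scrublet doublets, 111 in marked cells and 134 without cells with markers of other lineages. Fewer genes reach 30 UMIs after thinning. The subtraction took out 43.6%, 69.1% and 45.6% of UMIs in YUMMER1.7, YUMM1.7 and naive cells, and 88.5%, 91.3% and 87.2% of the lymphocyte UMIs that scaled it were Cd4 and Bank1. Scaled by 9 other genes it took out 2.99%, 4.94% and 4.68%. In marked cells the MHC class II list turned to -0.12 for YUMMER1.7 over naive and Il4i1 to -0.44 for YUMMER1.7 over YUMM1.7. The cause was not tested. Naive cells were the shallowest and gave 1195986 UMIs, against 2912317 and 2727726 in YUMMER1.7 and YUMM1.7, which limits what can be seen of genes low in naive nodes.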
